A study of Mus musculus with 6 samples.

Results

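Epidermal serine proteases and plasminogen activators were followed in 2 mouse keratinocyte lines. The 10 genes were chosen by symbol from the 24982 genes listed for each library: *Plau*, *Plat*, *Plaur*, *St14*, *Prss8*, *Klk6*, *Klk7*, *Klk8*, *Klk10* and *Klk11*. Poly(A) RNA was sequenced in 6 libraries of C57BL/6 keratinocytes from neonatal skin, none of them treated. The KSFM-Ca2+ group (3 libraries) is a line established and kept in a low-calcium keratinocyte serum-free medium, and the DKSFM group (3 libraries) is a line obtained from those cells by adapting them to a defined keratinocyte medium that holds more calcium. The medium, the adaptation and the survival of some cells during it therefore cannot be told apart in this comparison. The sources used here do not say whether replicates were separate cultures, so p-values measure only the spread between these libraries, which may be technical. The deposited data for KSFM-Ca2+ replicate 3 and for all DKSFM replicates carry the word combined in their names, which is not explained in the sources used here, so this difference is not spread evenly over the lines.

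Urokinase (*Plau*) and tissue plasminogen activator (*Plat*) cut plasminogen into plasmin, and the urokinase receptor (*Plaur*) holds urokinase at the cell surface. Matriptase (*St14*) and prostasin (*Prss8*) are membrane-anchored serine proteases of epithelia that act in a shared pathway needed for the epidermal barrier. Tissue kallikreins are secreted serine proteases made in the upper epidermis, where several of them cut the proteins that join corneocytes and so allow shedding, under the control of the inhibitor encoded by *Spink5*.

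Values are the mean read coverage per base of each gene, which already accounts for gene length, so that levels can be compared between genes. Summed over all genes, the coverage came to 1601676, 1238411 and 1057750 in KSFM-Ca2+ replicates 1 to 3 and 1174348, 1239438 and 1170675 in DKSFM replicates 1 to 3. Coverage was normalized between libraries, and levels below are normalized coverage as mean ± SD (n = 3 libraries) unless they are called listed. Log2 fold changes are DKSFM over KSFM-Ca2+ after adding 0.1, the rounding step of the files, and adjusted p-values come from limma over the 12409 genes with at least 0.5 in at least 3 libraries.

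All 10 genes passed that filter, but *Klk6*, *Klk7* and *Klk11* passed it through the DKSFM libraries only, and *Plat*, with 1 KSFM-Ca2+ library over 0.5, also needed them. With an adjusted p under 0.01 and a change of at least 2-fold, 6 of the 10 were higher in DKSFM (*Plat* and the 5 kallikreins), against 13.1% of all tested genes. Another 2 were lower (*Plau* and *Plaur*), against 10.6% of all tested genes. *St14* and *Prss8* changed by less than 2-fold. An adjusted p under 0.01 at any fold was reached by 10 of the 10 genes and by 72.6% of tested genes, and the lines did not overlap in 10 of the 10 and in 83.3% of tested genes, so neither of these counts sets the genes apart. The median log2 fold change was 2.4 over the 10 genes and -0.01 over all tested genes. The count of 6 higher and this median rest in part on *Klk6*, *Klk7*, *Klk11* and *Plat*, which needed the DKSFM libraries to pass. Both are therefore given as a description and are no support. The median also holds a fitted value for *Klk11* that depends on the pseudocount. With at least 0.5 required in every library, only *Plau*, *Plaur*, *St14*, *Prss8*, *Klk8* and *Klk10* were tested. Of these 6 genes, 2 (*Klk8* and *Klk10*) were higher in DKSFM, against 1025 of all 11112 genes tested with that filter.

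**Figure D1:**
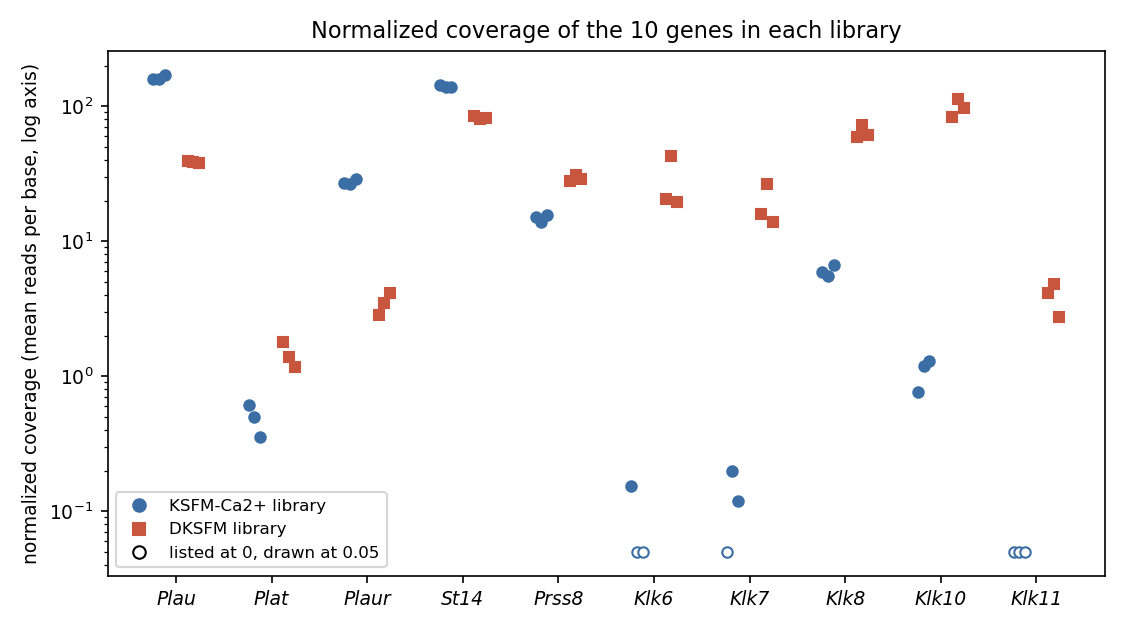
Normalized coverage (log axis) of the 10 genes in each of the 3 KSFM-Ca2+ libraries (circles) and 3 DKSFM libraries (squares), with libraries listed at 0 drawn as open symbols at 0.05. The lines do not overlap for any of the 10 genes, which the filter fixed for *Klk6*, *Klk7* and *Klk11*. The 5 kallikreins range from 0 to 6.61 in KSFM-Ca2+ and from 2.76 to 113 in DKSFM.

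Sequence around RefSeq starts of the genes is shown because the kallikreins differed together and the urokinase receptor in the other direction. RefSeq promoter windows (GRCm38.p6), which reach from before the gene start to just after it, were found for 6 of the 10 genes, namely *Plaur*, *Klk6*, *Klk7*, *Klk8*, *Klk10* and *Klk11*, with 8 windows in all. On both strands, 11 motifs were searched. The *Plaur* window (chr7:24462233-24462532, plus strand) is printed with the AP-1 motif TGANTCA in capitals, which begins 69 bases before the RefSeq start and occurs in 7.81% of 32851 promoter windows. The windows of *Klk6* (chr7:43825200-43825499, the second of its starts), *Klk8* (chr7:43797327-43797626) and *Klk10* (chr7:43780804-43781103), all on the plus strand, are printed with GTTAAAA in capitals.
Plaur: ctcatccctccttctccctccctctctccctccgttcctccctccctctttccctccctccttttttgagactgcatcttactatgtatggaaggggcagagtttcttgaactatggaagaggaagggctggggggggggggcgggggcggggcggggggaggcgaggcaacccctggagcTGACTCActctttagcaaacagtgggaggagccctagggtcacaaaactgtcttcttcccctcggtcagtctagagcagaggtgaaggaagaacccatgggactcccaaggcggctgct
Klk6: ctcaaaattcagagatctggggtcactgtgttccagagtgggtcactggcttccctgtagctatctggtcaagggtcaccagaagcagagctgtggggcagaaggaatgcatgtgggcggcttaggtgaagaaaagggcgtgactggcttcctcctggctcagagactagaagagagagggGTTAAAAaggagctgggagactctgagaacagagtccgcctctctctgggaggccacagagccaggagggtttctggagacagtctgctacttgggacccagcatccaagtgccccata
Klk8: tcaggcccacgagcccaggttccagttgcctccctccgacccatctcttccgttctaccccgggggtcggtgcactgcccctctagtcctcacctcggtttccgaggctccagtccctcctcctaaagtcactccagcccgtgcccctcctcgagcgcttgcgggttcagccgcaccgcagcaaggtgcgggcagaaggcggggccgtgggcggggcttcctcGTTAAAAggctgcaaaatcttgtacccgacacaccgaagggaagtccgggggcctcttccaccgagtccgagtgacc
Klk10: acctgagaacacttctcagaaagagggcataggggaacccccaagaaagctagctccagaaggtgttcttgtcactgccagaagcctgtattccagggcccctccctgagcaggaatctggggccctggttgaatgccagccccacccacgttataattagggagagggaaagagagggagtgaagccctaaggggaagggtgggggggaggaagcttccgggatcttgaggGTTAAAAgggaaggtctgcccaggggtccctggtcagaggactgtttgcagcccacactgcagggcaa

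GTTAAAA was added to the search after these sequences had been read. It begins 69, 27 and 18 bases before the RefSeq start of the window in *Klk6*, *Klk8* and *Klk10* and is in 3.41% of all windows. RefSeq and GENCODE starts can differ, and in *Klk10* the motif lies just after the GENCODE start, while the *Klk6* window printed lies wholly inside the gene as GENCODE places it. The other *Klk6* window and those of *Klk7* and *Klk11* have no match to either motif printed in capitals. Among the other 9 motifs, CCACCC (31.5% of all windows) was in a window of *Klk7*, *Klk10* and *Klk11*, and CCGGAAG (8.86%) in that of *Klk10*. TTGCNNAA (10.8%) was in the window of *Plaur* and both of *Klk11*, and an NF-kB motif (19.2%) in windows of *Plaur*, *Klk10* and *Klk11*. TATAAA (13.6%), AACCNGTT (2.09%), AACNNGTT (4.2%) and a pair of p53 family motifs (0.712% and 7.22%) were in none of the 8 windows. A match describes the letters only.

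*Plau*, which encodes urokinase, lies on chromosome 14, bases 20836660 to 20843385 (GRCm38, GENCODE M21). It had a listed coverage of 210.3, 161.6 and 145.4 in KSFM-Ca2+ and of 37.0, 38.6 and 35.9 in DKSFM. After normalization the level was 164 ± 6.57 in KSFM-Ca2+ and 38.6 ± 0.549 in DKSFM. Every KSFM-Ca2+ library was high and every DKSFM library low, and the unequal listed values within KSFM-Ca2+ drew together once depth was taken into account. The mean was 4.25 times as high in KSFM-Ca2+ (log2 fold change -2.09 ± 0.04 SE, adjusted p = 2.08e-09 by limma). In KSFM-Ca2+ this level exceeded that of 87.9% of tested genes, and in DKSFM that of 60%. *Plau* is among the genes that the study picked from these same libraries for a list of genes lower in DKSFM, so its direction is no independent result.

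*Plaur*, the urokinase receptor gene (chromosome 7, bases 24462484 to 24475968), was listed at 35.2, 26.6 and 24.5 in KSFM-Ca2+ and at 2.7, 3.5 and 3.9 in DKSFM. Normalized, it had 27.4 ± 1.36 in KSFM-Ca2+ and 3.50 ± 0.639 in DKSFM. The drop was deeper than that of its ligand, with a mean 7.83 times as high in KSFM-Ca2+ (log2 fold change -2.95 ± 0.12 SE, adjusted p = 1.52e-07). Within each library, which needs no scaling, *Plau* coverage was 5.97, 6.08 and 5.93 times that of *Plaur* in KSFM-Ca2+ and 13.7, 11 and 9.21 times in DKSFM. The ratio was nearly constant over the KSFM-Ca2+ libraries and higher in every DKSFM library. The smallest two-sided p that an exact permutation of 3 against 3 libraries can give is 0.1, so ratios are given without a test.

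*Plat*, the tissue plasminogen activator gene (chromosome 8, bases 22757727 to 22782844), had values near the smallest the files can show. It was listed at 0.8, 0.5 and 0.3 in KSFM-Ca2+ and at 1.7, 1.4 and 1.1 in DKSFM, and each 0.1 of coverage stands for some 2.97 reads. The lines did not overlap, but levels were low in both, 0.487 ± 0.128 in KSFM-Ca2+ and 1.45 ± 0.320 in DKSFM. The fitted change passed the threshold (log2 fold change 1.41 ± 0.24 SE, adjusted p = 7.15e-04), and fell under 2-fold with a pseudocount of 0.5 (0.98) or 1 (0.72). With so little *Plat*, the summed coverage of *Plau*, *Plat* and *Plaur* followed *Plau*, at 188, 187 and 201 in KSFM-Ca2+ and 43.8, 43.4 and 43.4 in DKSFM.

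Of 6 inhibitors of plasminogen activation or of plasmin, 3 were tested, and 2 of these were lower in DKSFM past the threshold and none higher (median log2 fold change -1.83), against 10.6% and 13.1% of all tested genes. *Serpinb2*, which encodes a urokinase inhibitor, had 597 ± 64.0 in KSFM-Ca2+ and 168 ± 12.7 in DKSFM (log2 fold change -1.83 ± 0.08 SE, adjusted p = 2.31e-07). The activator and this inhibitor were thus lower in the same libraries. *Plau* was 0.304, 0.262 and 0.263 times *Serpinb2* in KSFM-Ca2+ and 0.255, 0.216 and 0.222 times in DKSFM, a small difference with no overlap. Plasminogen itself (*Plg*) was listed at 0 in all 6 libraries. Of 6 plasminogen receptors and cofactors, 4 were tested and 1 was higher past the threshold (13.1% of all tested genes were), *Lrp1*, a clearance receptor for complexes of urokinase and its inhibitor, with 1.75 ± 0.322 in KSFM-Ca2+ and 11.9 ± 0.449 in DKSFM (log2 fold change 2.71 ± 0.13 SE, adjusted p = 3.53e-07).

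*St14*, which encodes matriptase, lies on the minus strand of chromosome 9, bases 31089402 to 31131853. Its coverage was listed at 188.4, 141.1 and 118.2 in KSFM-Ca2+ and at 79.9, 80.1 and 77.7 in DKSFM. Normalized, the level was 141 ± 2.24 in KSFM-Ca2+ and 82.3 ± 2.31 in DKSFM. The spread within each line was small and the lines were apart, yet the change was under 2-fold (log2 fold change -0.78 ± 0.03 SE, adjusted p = 1.46e-07).

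*Prss8*, which encodes prostasin (chromosome 7, bases 127925716 to 127930104), moved in the other direction. It was listed at 19.8, 14.1 and 13.3 in KSFM-Ca2+ and at 26.3, 30.8 and 27.2 in DKSFM, or 14.9 ± 0.871 and 29.1 ± 1.47 after normalization. Every DKSFM library was above every KSFM-Ca2+ library, by a mean of 1.95-fold (log2 fold change 0.96 ± 0.06 SE, adjusted p = 1.75e-06). This lay just inside the 2-fold limit, and without KSFM-Ca2+ replicate 3 it was just past that limit. *Kat8* overlaps *Prss8* on the opposite strand, with a mean of 54.5 in KSFM-Ca2+ and 38.2 in DKSFM, and reads assigned to the wrong strand were not tested for. The coverage of *St14* was 9.52, 10 and 8.89 times that of *Prss8* in the KSFM-Ca2+ libraries and 3.04, 2.60 and 2.86 times in the DKSFM libraries.

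Matriptase and prostasin are held in check by the inhibitors encoded by *Spint1* and *Spint2*. *Spint1* had 38.3 ± 1.87 in KSFM-Ca2+ and 67.4 ± 1.53 in DKSFM (log2 fold change 0.81 ± 0.04 SE, adjusted p = 6.80e-07), and *Spint2* 568 ± 26.9 and 551 ± 17.5 (log2 fold change -0.04 ± 0.04 SE, adjusted p = 0.352). *St14* was 3.74, 3.84 and 3.48 times *Spint1* in the KSFM-Ca2+ libraries and 1.27, 1.16 and 1.24 times in the DKSFM libraries, with no overlap. Among 19 other membrane-anchored serine proteases, 10 were tested, 6 were higher in DKSFM past the threshold and 1 was lower (median log2 fold change 3.6), against 13.1% and 10.6% of all tested genes. All of the higher ones but *Tmprss4* passed the filter through DKSFM only, so the count and the median are no support. *Tmprss4* rose from 11.7 ± 1.68 to 174 ± 10.2 (log2 fold change 3.90 ± 0.10 SE, adjusted p = 1.21e-08), which put it above *St14* in every DKSFM library. *Tmprss11d* had 0.311 ± 0.0987 in KSFM-Ca2+ and 31.4 ± 4.32 in DKSFM. *Tmprss7*, *Tmprss11a*, *Tmprss11f* and *Tmprss11g* were higher at means of 1.06 to 4.14 in DKSFM, from means at or near 0. The gene that was lower was *Prss22*, with 51.5 ± 5.57 in KSFM-Ca2+ and 12.7 ± 0.404 in DKSFM.

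**Figure D2:**
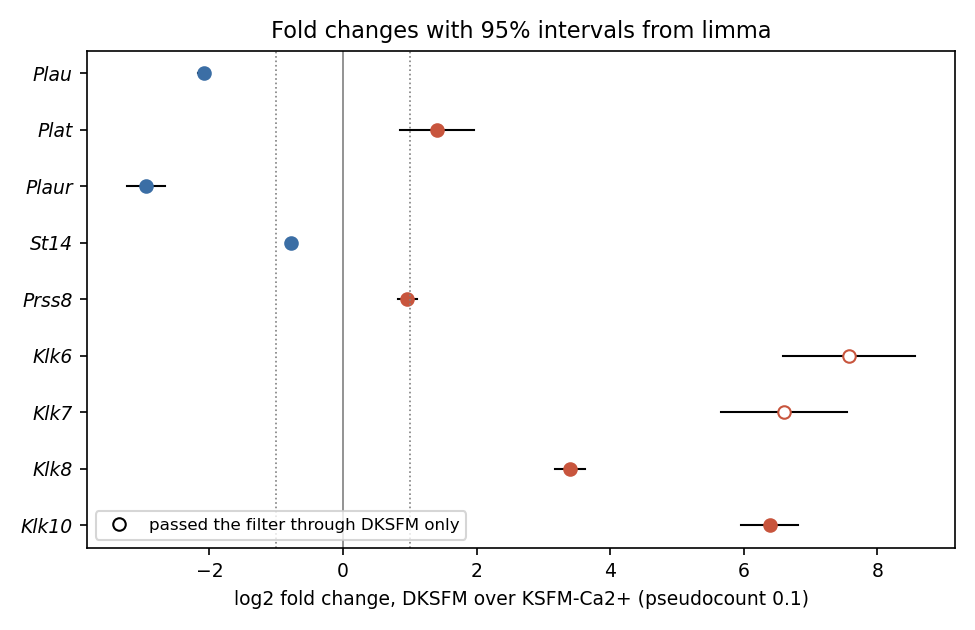
Log2 fold changes (DKSFM over KSFM-Ca2+, pseudocount 0.1) of the 10 genes other than *Klk11*, which is listed at 0 in KSFM-Ca2+, with 95% intervals from limma. Open symbols mark the genes that passed the filter through the DKSFM libraries only, and dotted lines mark a 2-fold change. *Plau* (-2.09) and *Plaur* (-2.95) lie beyond the lower line, and *St14* (-0.78) and *Prss8* (0.96) lie between the lines.

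The 5 kallikreins were all higher in DKSFM. *Klk10* (chromosome 7, bases 43781035 to 43785410) was listed at 1.0, 1.2 and 1.1 in KSFM-Ca2+ and at 78.6, 112.9 and 91.2 in DKSFM. Normalized, it rose from 1.08 ± 0.284 to 97.5 ± 14.8, 90.0 times the KSFM-Ca2+ mean (log2 fold change 6.39 ± 0.19 SE, adjusted p = 2.23e-08). With pseudocounts of 0.5 and 1 the log2 fold change was 5.96 and 5.56. In DKSFM it stood above 80.5% of tested genes, and in KSFM-Ca2+ above 9.45%. *Klk8*, which encodes neuropsin (chromosome 7, bases 43797577 to 43803826), was the kallikrein with the highest coverage in KSFM-Ca2+. It was listed at 7.7, 5.6 and 5.6 there and at 55.9, 73.2 and 57.3 in DKSFM, or 6.01 ± 0.543 and 64.3 ± 7.60 after normalization (log2 fold change 3.40 ± 0.10 SE, adjusted p = 1.86e-08). For both genes all DKSFM libraries lay far above all KSFM-Ca2+ libraries.

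The other 3 kallikreins of the 10 genes were at or near 0 in KSFM-Ca2+. *Klk6* (chromosome 7, bases 43824499 to 43832030) was listed at 0.2, 0 and 0 in KSFM-Ca2+ and at 19.5, 43.1 and 18.5 in DKSFM. *Klk7*, which encodes the chymotryptic enzyme of the stratum corneum (chromosome 7, bases 43811294 to 43816359), was listed at 0, 0.2 and 0.1 in KSFM-Ca2+ and at 15.0, 26.4 and 13.2 in DKSFM. *Klk11* (chromosome 7, bases 43774604 to 43779263) was listed at 0 in all KSFM-Ca2+ libraries and at 3.9, 4.8 and 2.6 in DKSFM. Each 0.1 of coverage stands for some 1.33 reads in *Klk6*, 2.23 in *Klk7* and 1.12 in *Klk11*. These 3 genes passed the filter through DKSFM only, so their complete separation was fixed by the filter. It is no support, nor are their adjusted p-values. The size of the change on a fold scale rests on the pseudocount. With 0.1, 0.5 and 1 added, the log2 fold change was 7.58, 5.60 and 4.69 for *Klk6* and 6.60, 4.95 and 4.11 for *Klk7* (adjusted p = 8.03e-07 and 1.36e-06 with 0.1). No fold is given for *Klk11* (adjusted p = 3.32e-07), since it is listed at 0 in that line.

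DKSFM replicate 2 was the highest of the DKSFM libraries for each of the 9 kallikreins that were tested. The share of all tested genes that were highest in that library is not given here. This count therefore has no background and is no support. The level in replicate 2 over the mean of the other DKSFM libraries was 2.13 for *Klk6*, 1.76 for *Klk7*, 1.38 for *Klk11*, 1.25 for *Klk10* and 1.22 for *Klk8*. Over 12021 tested genes with a DKSFM mean of at least 0.5, this ratio had a median of 1, a 5th percentile of 0.846 and a 95th percentile of 1.21. The 5 kallikreins thus stood above that upper percentile, while *Plau*, *Plat*, *Plaur*, *St14* and *Prss8* lay between 0.946 and 1.08. Among suprabasal keratinocyte markers the ratio was 1.36 for *Krt10*, 1.07 for *Sbsn*, 0.99 for *Ivl* and 0.968 for *Lor*. *Krt1*, which was not tested, had 0.529, 0.798 and 0.212 in the DKSFM libraries. *Dsc1*, a desmosomal gene (1.59, 2.89 and 1.70), and *Tmprss11f* (0.741, 1.5 and 0.954) were also highest in replicate 2, but were picked after their values were seen. Other genes of their lists went both ways. For example, *Cdsn* (157, 176 and 162) was highest in replicate 2 and *Scnn1a* (8.36, 7.29 and 7.32) was not. Without DKSFM replicate 2 the log2 fold change was 7.21 for *Klk6*, 6.33 for *Klk7*, 3.30 for *Klk8* and 6.28 for *Klk10*. Each was still past the threshold, as was *Klk11*. For *Klk6*, *Klk7* and *Klk11*, which passed the main filter through DKSFM only, this is no support.

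**Figure D3:**
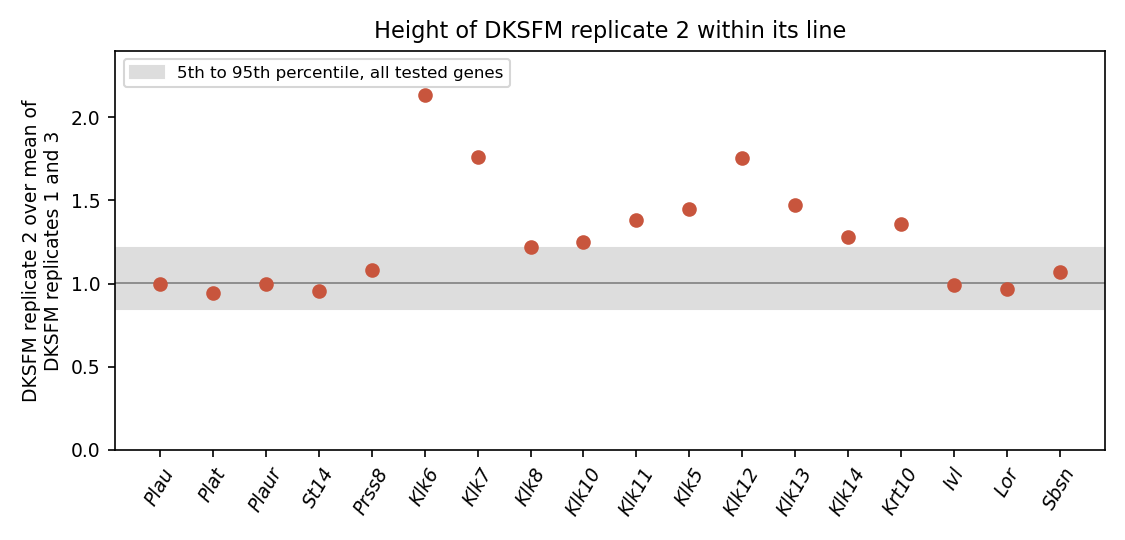
Normalized coverage in DKSFM replicate 2 divided by the mean of DKSFM replicates 1 and 3, for the 10 genes, other tested kallikreins and tested suprabasal markers. The grey band spans the 5th to 95th percentile of tested genes (0.846 to 1.21). The kallikreins lie above the band, with *Klk6* highest at 2.13.

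The kallikreins lie side by side on chromosome 7, all on the plus strand. From *Klk14* to *Klk1* the cluster spans 539.2 kb, from 43690418 to 44229618. Nearly all of the kallikrein coverage lay in its first stretch. Of 8 other tissue kallikreins, 4 were tested and 4 were higher in DKSFM, each listed at 0 in all KSFM-Ca2+ libraries. They could pass the filter only through DKSFM, so that count was fixed by the filter. *Klk14*, which encodes a trypsin-like kallikrein, reached 93.3 ± 14.0 in DKSFM, next to *Klk10* in level, and *Klk12* 11.4 ± 4.02. *Klk5* and *Klk13* reached 1.96 ± 0.474 and 0.998 ± 0.281, and *Klk9*, with a DKSFM mean of 0.551, was not tested. These 10 kallikreins follow each other from *Klk14* to *Klk5*, whose starts are 151.6 kb apart. The other 16, namely *Klk4*, *Klk15*, *Klk1* and the 13 *Klk1b* genes, were listed at 0 in every library. The pseudogene *Klk1b7-ps*, which is not counted among these, had a mean of 0 in KSFM-Ca2+ and 0.0665 in DKSFM.

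**Figure D4:**
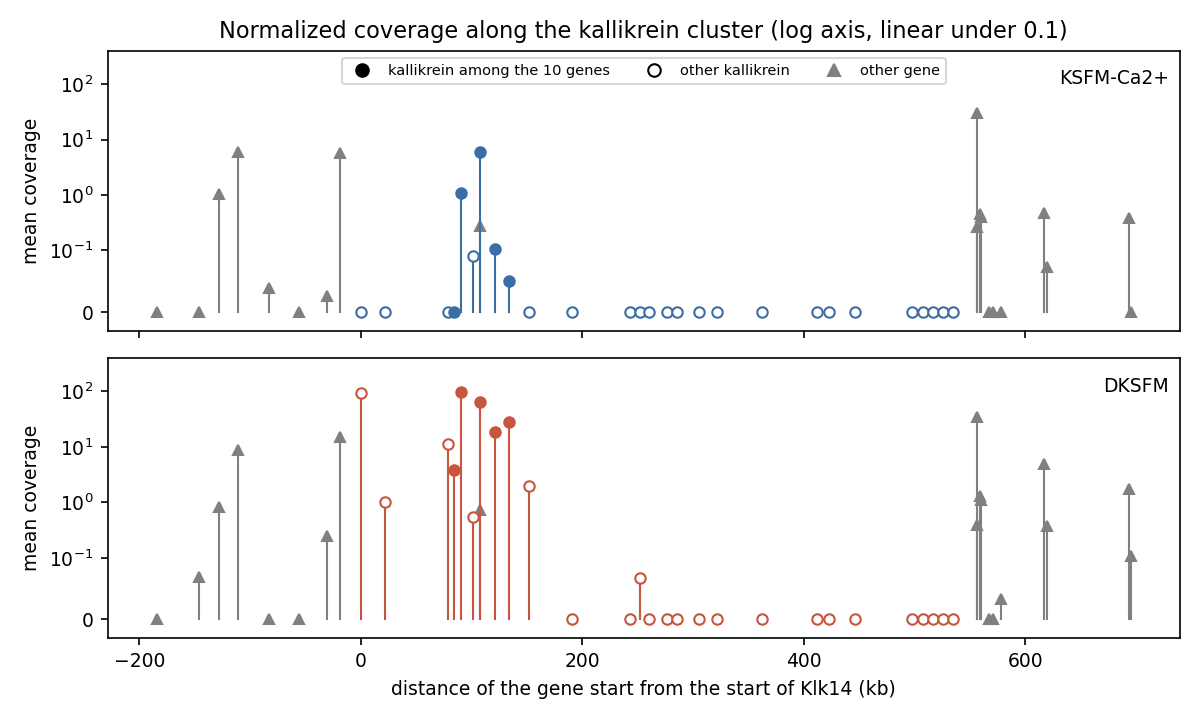
Mean normalized coverage in KSFM-Ca2+ and DKSFM (n = 3 libraries each, log axis that is linear under 0.1) of the listed genes within 200 kb of the kallikrein cluster, by distance of the gene start from that of *Klk14*. Filled circles are the 5 kallikreins of the 10 genes, open circles other kallikreins (a pseudogene included) and triangles other genes. Coverage in DKSFM is above 0 from *Klk14* to *Klk5* (151.6 kb). The kallikreins beyond are at 0 in both lines, except the pseudogene *Klk1b7-ps*, with a DKSFM mean of 0.0665.

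Neighbouring genes were also examined. Within 200 kb on either side, and inside the cluster, 20 genes other than kallikreins were listed. Of these 8 were tested, 3 were higher in DKSFM past the threshold (*Ctu1*, *Clec11a* and *Syt3*) and 0 lower, against 13.1% and 10.6% of all tested genes, and the median log2 fold change of the 8 was 1.43. *Clec11a*, *Syt3* and a pair of small nucleolar RNA genes had KSFM-Ca2+ means under 0.5 and needed the DKSFM libraries to pass the filter, so the count and the median are no support. In the 20 Mb window that holds the kallikreins, 128 other tested genes had a median log2 fold change 0.49 above that of all tested genes. The corresponding value was 0.57 for *Plaur*, -0.41 for *Prss8*, -0.42 for *Plat*, -0.24 for *St14* and -0.13 for *Plau*, so *Plaur*, *Prss8* and *Plat* changed against the shift of their own windows. The part of such shifts in the results was not tested. No stretch of 85 bases, the read length, was shared between annotated transcripts of any of the 10 genes and those of another gene. The noncoding gene *2310002F09Rik*, antisense to *Klk8*, *Klk10* and *Klk11*, had a mean of 0.280 in KSFM-Ca2+ and 0.731 in DKSFM, well under these kallikreins in DKSFM.

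The order of levels among the kallikreins in DKSFM was *Klk10*, *Klk14*, *Klk8*, *Klk6*, *Klk7*, *Klk12*, *Klk11*, *Klk5*, *Klk13* and *Klk9*. The DKSFM libraries overlapped between *Klk10* and *Klk14*, between *Klk6* and *Klk7* and between *Klk7* and *Klk12*. Within each DKSFM library, however, *Klk6* was above *Klk7* and *Klk7* above *Klk12*, while *Klk10* and *Klk14* changed places between libraries. *Klk10*, *Klk14* and *Klk8* made up 30.4%, 29.1% and 20.1% of the summed kallikrein coverage outside the *Klk1b* genes. That sum was 6.86, 7.14 and 8.03 in the KSFM-Ca2+ libraries and 282, 389.7 and 289.6 in the DKSFM libraries.

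The kallikrein inhibitor gene *Spink5* went the other way, with 80.5 ± 3.07 in KSFM-Ca2+ and 30.4 ± 2.61 in DKSFM (log2 fold change -1.40 ± 0.06 SE, adjusted p = 2.32e-07). Within libraries, the summed coverage of the 5 kallikreins was 0.0822, 0.0902 and 0.0980 times that of *Spink5* in KSFM-Ca2+ and 6.55, 7.84 and 6.44 times in DKSFM. *Slpi*, encoding a secreted inhibitor of serine proteases that include *Klk7*, fell from 1630 ± 55.7 to 516 ± 18.3 (log2 fold change -1.66 ± 0.04 SE, adjusted p = 5.51e-09). Of the 8 inhibitors of matriptase, prostasin and kallikreins with values (*Spink3* was not analysed here), 4 were tested, 2 were lower in DKSFM (*Spink5* and *Slpi*) and 0 higher past the threshold, with 10.6% and 13.1% of all tested genes as the background.

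**Figure D5:**
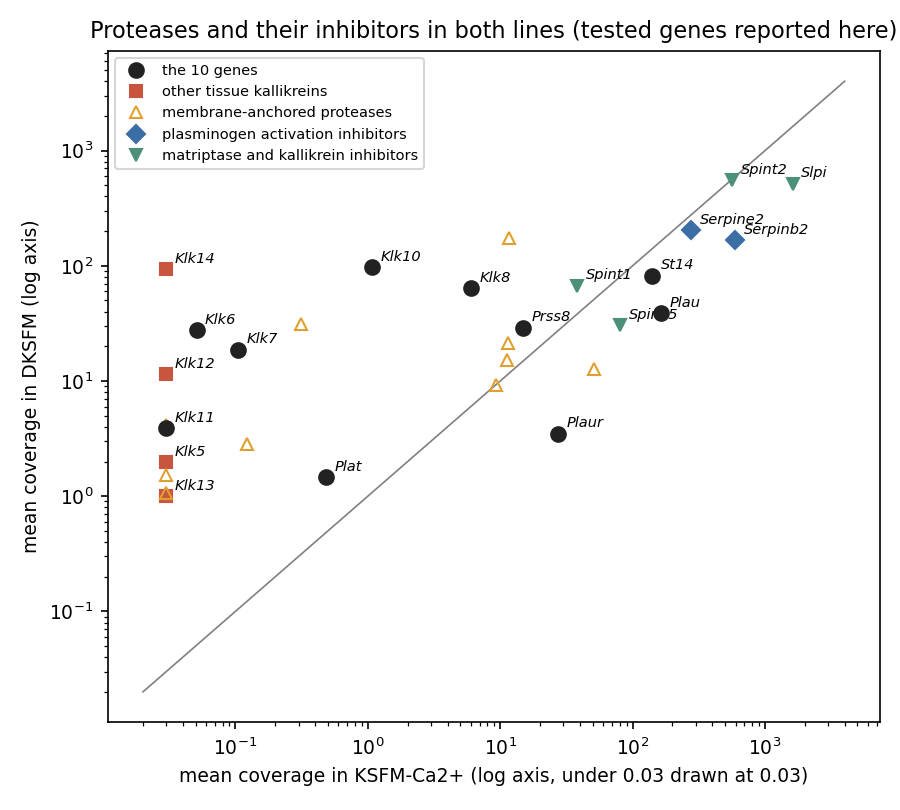
Mean normalized coverage in KSFM-Ca2+ and DKSFM (log axes, values under 0.03 drawn at 0.03) of the tested genes among the 10, other tissue kallikreins, other membrane-anchored serine proteases and the lists of inhibitors, as far as they are reported here. The line marks equal levels. The kallikreins lie above it, and *Plau*, *Plaur*, *Serpinb2*, *Spink5* and *Slpi* below it.

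Of 17 substrates and effectors of these proteases, 12 were tested, 6 were higher in DKSFM and 1 lower (median log2 fold change 0.91), against 13.1% and 10.6% of all tested genes. *Cdsn*, which encodes corneodesmosin, a kallikrein substrate of the corneodesmosome, rose from 14.8 ± 1.33 to 165 ± 10.2 (log2 fold change 3.48 ± 0.07 SE, adjusted p = 4.38e-09). *Scnn1a*, a subunit gene of the epithelial sodium channel that prostasin activates, rose from 0.639 ± 0.137 to 7.65 ± 0.612, and *Scnn1g* from near 0 to 0.794 ± 0.0904. *Dsg1a* and *Dsc1*, desmosomal cadherin genes, reached 1.59 ± 0.274 and 2.06 ± 0.725 in DKSFM. *Scnn1g*, *Dsg1a* and *Dsc1* passed the filter through DKSFM only, so the count and the median over these substrates are no support. *Epcam*, a matriptase substrate, fell from 272 ± 5.46 to 95.6 ± 0.976. Of 11 other secreted serine proteases, 3 were tested, of which 1 was higher and 1 lower past the threshold, beside 13.1% and 10.6% of all tested genes. *Prss23* was higher in DKSFM (91.7 ± 6.26 and 2534 ± 59.7) and *Hgfac*, which passed the filter through KSFM-Ca2+ only, lower (1.42 ± 0.196 and 0.102 ± 0.0999).

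Basal keratinocyte genes were abundant in both lines, with a summed coverage of the 6 markers of 18921, 19380 and 18975 in KSFM-Ca2+ and 44660, 40834 and 45187 in DKSFM, most of it *Krt14*. Of these 6 markers, 2 (*Krt5* and *Krt14*) were higher in DKSFM past the threshold and 0 lower, against 13.1% and 10.6% of all tested genes. The summed suprabasal markers were also higher in DKSFM, carried by *Sbsn*. Their coverage was 83.3, 79.5 and 87.3 in KSFM-Ca2+ and 801, 853 and 796 in DKSFM, and 2 of 4 tested markers (*Sbsn* and *Lor*) were higher past the threshold, as were 13.1% of all tested genes. *Lor* needed the DKSFM libraries to pass the filter. *Ivl* went the other way, 21.3 ± 0.200 in KSFM-Ca2+ and 13.5 ± 0.391 in DKSFM. More cells of a suprabasal kind and more RNA per cell cannot be told apart in bulk libraries, and the part of this in the kallikrein result was not tested. Markers of other cell types had sums that were low beside the basal keratinocyte genes, though the melanocyte and endothelial sums were higher in DKSFM, and the part of these genes in the results was not tested. Of 6 fibroblast markers, 5 were at 0 in every library, *Col1a1*, *Col3a1* and *Dcn* among them, and the sum, all of it *Pdgfra*, was 0.893 to 1.30 in KSFM-Ca2+ and 2.10 to 2.33 in DKSFM. Immune markers summed to 1.30 to 2.01 in KSFM-Ca2+, mostly *Cd74*, and 0 to 0.200 in DKSFM, and mast cell markers, mostly *Cma1*, to 0.590 to 1.19 in KSFM-Ca2+ and 0 in DKSFM, with *Cpa3*, *Kit* and *Mcpt4* at 0. Endothelial markers summed to 2.82 to 3.31 in KSFM-Ca2+ and 7.42 to 8.28 in DKSFM, mostly *Pecam1*, with *Cdh5* and *Tie1* at 0. Melanocyte markers summed to 3.97 to 4.61 in KSFM-Ca2+ and 17.3 to 18.7 in DKSFM, mostly *Mitf*, with *Tyr* and *Dct* at 0 and *Pmel* listed at 0.2 to 0.7.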

How the data were processed

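Libraries were directional poly(A) RNA, sequenced as single-end reads, and STAR alignment to mm10 was done by the authors, who quantified reads with Salmon and ran DESeq2 for their own comparison. The signal that the authors deposited is read coverage per base, averaged over each gene and rounded to 1 decimal, with no scaling to library size. How coverage was computed is not given in the sources used here. A count model was not used, because coverage is not a count. Libraries were scaled with a trimmed mean of M values without weights (30% of M and 5% of A trimmed, factors 0.99 to 1.01) and brought to the geometric mean of their totals. This common scale replaced the arithmetic mean after the results of a first run had been seen, because it gave the number of tested genes of an earlier analysis of these data. Genes with at least 0.5 in at least 3 libraries were tested with limma 3.58.1 (R 4.3.3), with an intensity trend and Benjamini-Hochberg adjustment, at an adjusted p under 0.01 and a 2-fold change. The procedure was tested on simulated data. The genes named are the 10 genes and, of each list, those past the threshold, except 2 that are not reported here. Others, among them *Ctu1*, *Clec11a*, *Syt3*, *Kat8*, *2310002F09Rik*, *Klk9* and *Krt1*, were chosen after their values were seen, as were the ratios, the motifs, the flank of 200 kb and the comparison of DKSFM replicate 2 with its line. The members and lists were chosen with earlier results of these data known. Positions are from GENCODE M21 and promoters from RefSeq (GRCm38.p6). Approximate reads are coverage times median transcript length over the read length of 85 bases. Python 3.11.15 and matplotlib 3.10.9 drew the figures. The alternatives were other scalings, pseudocounts and filters, no trend, a replicate block, other thresholds, each library left out, and the libraries marked combined only.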

Additional observations from a re-analysis of the deposited data

How the results depend on the processing

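Over 19 alternatives, the log2 fold changes of the 10 genes kept their direction in each fit that tested them, and their side of the threshold in 181 of 186 fits. The exceptions concerned *Plat* and *Prss8*. *Klk6*, *Klk7* and *Klk11* kept both in all fits that tested them, 18 for each. They passed the main filter through DKSFM only, so their part of these counts is no support. *Plat* no longer passed with a pseudocount of 0.5 or 1, or with treat against a 2-fold change (adjusted p = 0.325). *Plat* also did not pass with the libraries marked combined only, where its log2 fold change was 1.74 against 1.41 in the main fit. *Prss8* passed without KSFM-Ca2+ replicate 3. In that last case 7 of the 10 genes were higher in DKSFM, against 1691 of all 12671 genes tested. In the fit on files marked combined, the lone KSFM-Ca2+ library is assumed to vary like the DKSFM libraries. Requiring 0.5 in every library left 2 of the 10 genes higher in DKSFM and 1025 of the 11112 genes tested. Genes near 0 in KSFM-Ca2+, *Klk6*, *Klk7*, *Klk11* and *Plat* among them, are then not tested. With treat, 1844 genes passed an adjusted p of 0.01, 1057 higher and 787 lower in DKSFM, since treat tests for more than a 2-fold change. The replicate block gave 6 of the 10 genes higher and 2 lower, 8743 genes past an adjusted p of 0.01, 1636 higher and 1316 lower, and changed no call among the 10 genes. Libraries with the same replicate number did not deviate together (correlations over 9895 genes of -0.0415, 0.0485 and -0.00247), so the numbers are not taken to pair them. Leaving out 1 library gave 6 to 7 of the 10 genes higher and 2 lower. In these fits 1595 to 1704 of the 12578 to 12671 tested genes were higher and 1295 to 1342 lower. The arithmetic mean as the common scale, added after seeing the data, gave 6 of the 10 genes higher and 2 lower. Of the 12472 genes tested with it, 1645 were higher, 1326 lower and 9028 past an adjusted p of 0.01. No counts were used, so the 0.1 rounding step limits what can be said of *Plat*, *Klk6*, *Klk7*, *Klk10* and *Klk11*.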
